A study of Mus musculus with 18 samples.

Results

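Genes for making, importing and storing cholesterol were followed in mouse alveolar macrophages, which live on the surface of the air sacs, of 3 knockouts and their own controls. The 27 genes were taken by symbol from a table of 32789 genes: enzymes of the mevalonate and sterol pathway, the SREBP2 control system, and genes of sterol transport, lipoprotein uptake and storage. All 27 genes were in the table and all 27 passed the filter on low counts, out of 12900 genes tested. The polyA RNA came from cells that were collected by bronchoalveolar lavage and enriched on CD11c magnetic beads.

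The groups are named here by their labels, with 3 libraries in each. Vhl-Hif1-KO carried CD11c-Cre, a recombinase active in CD11c-positive cells, and lacked Vhl and Hif1a, while its control, Vhl-Hif1-control, had floxed Vhl and Hif1a alleles. Vhl-Hif2-KO lacked Vhl and Hif2a (gene symbol Epas1) under the same Cre, and Vhl-Hif2-control had the floxed Vhl and Hif2a alleles. Vhl-Hif1-Hif2-KO, the triple knockout, lacked all 3 genes, and Vhl-Hif1-Hif2-control had the 3 genes floxed. Every knockout lacked Vhl, so HIF-2α could accumulate in Vhl-Hif1-KO, HIF-1α in Vhl-Hif2-KO, and neither in the triple knockout. The labels do not say whether the controls lacked Cre or whether libraries came from separate animals, and the p-values measure only the spread between these libraries, which may be technical. CD11c-Cre acts in every CD11c-positive cell of the mouse, so the lavaged macrophages were not the only cells with the deletions.

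Cholesterol is built from acetyl-CoA through mevalonate, isoprenoid diphosphates, squalene and lanosterol, and the last reductions and isomerisations turn lanosterol into cholesterol. The transcription factor SREBP2 drives most of these genes when sterol in the endoplasmic reticulum runs low. SCAP then carries SREBP2 to the Golgi for cleavage, and the INSIG proteins hold the complex back when sterol is plentiful. Alveolar macrophages clear surfactant, which contains cholesterol, and handle that cholesterol through lysosomal export, esterification and efflux. Several of the enzymes use molecular oxygen, among them those encoded by Sqle, Cyp51, Msmo1 and Sc5d.

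RefSeq promoters (GRCm38.p6, 250 bases before to 50 after a start) were found for 22 of the 27 genes, and not for Fdps, Fdft1, Sqle, Stard4 and Npc1. For genes with several starts, the most upstream start was used. Letters known from SREBP2-regulated promoters were searched on both strands, and the promoters of Mvd, Hmgcs1 and Insig2 are shown because they carry these letters and because Mvd and Insig2 moved in opposite directions below. Capitals mark CCAAT, or ATTGG where it lies on the other strand, which are the letters of the cofactor NF-Y, and in Hmgcs1 also TCACCCCAC, a match to the sterol regulatory element TCACNCCAC. Each run gives the 250 bases before the start, 5′ to 3′ on the strand of the gene. They lie at chr8:122443423-122443672 on the minus strand for Mvd, chr13:119690101-119690350 on the plus strand for Hmgcs1 and chr1:121332590-121332839 on the minus strand for Insig2.
Mvd: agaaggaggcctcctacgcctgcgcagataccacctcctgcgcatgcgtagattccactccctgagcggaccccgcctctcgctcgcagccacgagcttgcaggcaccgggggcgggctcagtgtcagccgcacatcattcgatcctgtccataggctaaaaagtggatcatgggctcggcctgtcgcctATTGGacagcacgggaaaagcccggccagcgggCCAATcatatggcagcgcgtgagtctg
Hmgcs1: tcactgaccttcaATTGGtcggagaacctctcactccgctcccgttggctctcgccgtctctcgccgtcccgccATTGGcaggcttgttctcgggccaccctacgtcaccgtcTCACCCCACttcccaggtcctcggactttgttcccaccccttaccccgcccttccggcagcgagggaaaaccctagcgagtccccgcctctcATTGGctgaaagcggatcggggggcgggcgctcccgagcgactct
Insig2: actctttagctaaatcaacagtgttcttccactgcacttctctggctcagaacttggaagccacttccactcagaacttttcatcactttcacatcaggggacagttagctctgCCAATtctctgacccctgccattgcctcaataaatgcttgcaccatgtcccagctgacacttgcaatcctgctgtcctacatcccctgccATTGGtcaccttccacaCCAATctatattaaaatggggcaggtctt

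CCAAT was present in 19 of the 22 promoters (86.4%), against 38.02% of all 27025 promoters in the table and 39.41% of the 9962 promoters of tested genes. TCACNCCAC was present in 1 of 22, Hmgcs1, against 1.22% of all promoters, and TCANNTGA in 0 of 22, against 8.38%. The core letters of the hypoxia response element were searched as ACGTG, found in 4 of 22 (18.2%) against 19.63% of all promoters, and GCGTG, found in 14 of 22 (63.6%) against 32.53% of all promoters and 51.33% of those of tested genes. ACGTG and GCGTG end in the same 4 letters and cannot match at 1 position on 1 strand. Insig2 has 3 RefSeq starts. The first one shown above held CCAAT and neither hypoxia string, and both downstream windows held GCGTG and no CCAAT. The most downstream window, which is not among the 22, also held TCANNTGA. These are matches of letters, not measured binding sites.

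Libraries held 19230452 to 34015320 counts. Vhl was at 2.62 to 3.09 CPM in Vhl-Hif1-KO and 13.2 to 18.9 CPM in Vhl-Hif1-control, at 1.92 to 2.48 CPM in Vhl-Hif2-KO and 17.5 to 20.1 CPM in Vhl-Hif2-control, and at 1.96 to 2.53 CPM in Vhl-Hif1-Hif2-KO and 12.2 to 14.3 CPM in Vhl-Hif1-Hif2-control. CPM is a count scaled to a common library size. Hif1a was at 166 to 209 CPM in Vhl-Hif1-KO and 225 to 232 CPM in its control, and at 58.7 to 78.6 CPM in the libraries labelled Vhl-Hif2-KO and 179 to 242 CPM in their control. Epas1 was at 48.0 to 58.6 CPM in the libraries labelled Vhl-Hif2-KO and 23.2 to 35.1 CPM in their control. Hif1a was at 236 to 241 CPM in Vhl-Hif1-Hif2-KO and 137 to 251 CPM in its control. Epas1 was at 36.8 to 60.4 CPM in Vhl-Hif1-KO and 33.2 to 35.9 CPM in its control, and at 30.6 to 38.4 CPM in Vhl-Hif1-Hif2-KO and 32.6 to 51.4 CPM in its control. A count over a whole gene includes exons that the deletion leaves in place, so the RNA of Hif1a and Epas1 is no check of their deletion, and which subunit a knockout retained is taken from its label. The 14 markers of alveolar macrophages were all present and summed to 36219 to 42498 CPM in the 9 knockout libraries and 26652 to 34647 CPM in the 9 control libraries. Chil3 alone made up most of that sum, with means of 25041 CPM in Vhl-Hif2-KO and 18621 CPM in Vhl-Hif2-control. The list moved both ways: in Vhl-Hif2-KO 4 of the 14 rose (Itgax, Marco, Chil3 and Fabp4) and 2 fell (Siglecf and Krt79), in Vhl-Hif1-KO Fabp4 rose and Siglecf fell, and in Vhl-Hif1-Hif2-KO Itgax rose. Among all genes, 7.68% rose and 7.01% fell in Vhl-Hif2-KO, and 2.22% rose and 1.42% fell in Vhl-Hif1-KO. In Vhl-Hif1-Hif2-KO 0.0388% moved in either direction. The 7 markers of T and NK cells summed to at most 0.87 CPM in any library, with Ncr1 at 0 in every group. Library 2 of Vhl-Hif1-Hif2-control stood apart. Its root mean square deviation from its group mean over the genes was 0.407 on the log2 scale, against 0.142 to 0.275 for the other 17 libraries.

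In these macrophages, levels per length of exon ranged over more than an order of magnitude. Npc2, a lysosomal carrier that takes up free cholesterol, had the highest mean level at 98.8 CPM per kb. Hmgcs1, which makes the mevalonate precursor HMG-CoA, followed at 42.7, then Mvd at 37.8, Npc1 at 37.6 and Soat1 at 31.7 CPM per kb. Lss, the lanosterol synthase, was at 3.25 and Tm7sf2, a sterol reductase, was lowest at 1.998 CPM per kb. The highest library was 1.14 times the lowest for Npc2 and 2.52 times the lowest for Mvk, the smallest and largest such ratios of the 27 genes. The ratio of Mvk rests on library 2 of Vhl-Hif1-Hif2-control, at 25.1 CPM. All other libraries had Mvk at 9.95 to 16.5 CPM.

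The Vhl-Hif2 comparison, by its labels, asks how cells without Vhl that can still make HIF-1α differ from controls. In Vhl-Hif2-KO 10 of the 27 genes were called (14.7% of all genes were), of which 9 fell (33.3% of the 27) and 1 rose (3.7%), against 7.01% and 7.68% of all 12900 genes, at a Benjamini-Hochberg adjusted p under 0.05 in edgeR's quasi-likelihood test over all genes. None of the first 4 enzymes, encoded by Acat2, Hmgcs1, Mvk and Pmvk, was called. The genes that fell were Mvd and Fdps before squalene, Fdft1 and Sqle around it, Cyp51, Hsd17b7, Sc5d and Dhcr7 after lanosterol, and the lysosomal exporter Npc1. Their levels in Vhl-Hif2-KO were 64.5% to 83.7% of those in Vhl-Hif2-control. The gene that rose was Insig2. The median log2 fold change of the 27 genes was -0.26, against 0.003 for all genes tested, and 24 of the 27 lay below 0. In 16 genes (59.3%) every Vhl-Hif2-KO library was below every Vhl-Hif2-control library, against 16.6% of all genes. Every knockout library was above every control library in 1 gene (3.7%), against 18.5% of all genes.

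Of the 7 early mevalonate genes, 2 fell. Mvd, the decarboxylase that makes isopentenyl diphosphate, was at 55.5, 51.7 and 51.7 CPM in Vhl-Hif2-KO and at 60.1, 82.9 and 75.5 CPM in Vhl-Hif2-control. The groups did not overlap, but control library 1 was close to the knockouts (log2 fold change -0.46 ± 0.14 SE, edgeR adjusted p = 0.031). Fdps, which joins isoprenoid units into farnesyl diphosphate, was at 58.8, 57.9 and 54.7 CPM in Vhl-Hif2-KO and at 78.0, 75.0 and 78.7 CPM in Vhl-Hif2-control. Both groups were tight and well apart, with a log2 fold change of -0.43 ± 0.10 (edgeR adjusted p = 0.0080). Idi1, the isomerase between Mvd and Fdps, averaged 69.1 ± 4.51 CPM in Vhl-Hif2-KO and 100.2 ± 8.19 CPM in Vhl-Hif2-control (SD, 3 libraries each). Its log2 fold change of -0.54 ± 0.19 did not pass the test with all 18 libraries (edgeR adjusted p = 0.077). Idi1 did pass with DESeq2 (adjusted p = 0.045) and with edgeR on the 6 libraries of this cross alone (adjusted p = 0.0039). It did not pass with RLE scaling or without the low-count filter (edgeR adjusted p = 0.074 and 0.063). Nor did it pass with any 1 library of the cross left out (edgeR adjusted p = 0.095 to 0.21). Hmgcs1 had a log2 fold change of -0.34 ± 0.13 with edgeR adjusted p = 0.11 and did not overlap between groups. Acat2, the thiolase of the first step, and the kinases Mvk and Pmvk overlapped between groups, with log2 fold changes of -0.24, -0.04 and -0.03.

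Of the 3 genes around squalene, 2 fell. Fdft1, squalene synthase, was at 44.4, 40.2 and 39.3 CPM in Vhl-Hif2-KO and at 59.7, 59.1 and 54.0 CPM in Vhl-Hif2-control, with no overlap (log2 fold change -0.48 ± 0.11, edgeR adjusted p = 0.0076). Sqle, the oxygen-dependent epoxidase that is a slow step of the pathway, was at 52.6, 58.0 and 50.3 CPM in Vhl-Hif2-KO and at 78.8, 71.7 and 62.5 CPM in Vhl-Hif2-control. The groups did not overlap, though the controls were spread (log2 fold change -0.40 ± 0.12, edgeR adjusted p = 0.033). Lss averaged 29.4 ± 2.63 CPM in Vhl-Hif2-KO and 33.9 ± 4.32 CPM in Vhl-Hif2-control (SD, 3 libraries each), with overlapping libraries.

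Of the 8 genes after lanosterol, 4 fell, and all 8 log2 fold changes lay below 0. Cyp51 (ENSMUSG00000001467, chr5:4081145-4104746, minus strand, GRCm38), which removes a methyl group from lanosterol, was at 75.8, 65.8 and 65.2 CPM in Vhl-Hif2-KO and at 116, 108 and 97.2 CPM in Vhl-Hif2-control. It had the lowest log2 fold change of the 27 genes, -0.63 ± 0.13 (edgeR adjusted p = 0.0022), and no overlap. Dhcr7 (ENSMUSG00000058454, chr7:143823145-143848410, plus strand), the reductase of the last step, was at 43.2, 42.1 and 42.5 CPM in Vhl-Hif2-KO and at 59.2, 59.9 and 63.4 CPM in Vhl-Hif2-control. Both groups were tight and far apart (log2 fold change -0.51 ± 0.10, edgeR adjusted p = 0.0014).

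Hsd17b7, a sterol ketoreductase, was at 17.6, 18.7 and 18.6 CPM in Vhl-Hif2-KO and at 30.5, 24.0 and 22.0 CPM in Vhl-Hif2-control, with control library 1 far above the other two (log2 fold change -0.48 ± 0.15, edgeR adjusted p = 0.042). Sc5d, an oxygen-dependent sterol desaturase, was at 24.3, 22.8 and 22.6 CPM in Vhl-Hif2-KO and at 38.4, 30.6 and 27.1 CPM in Vhl-Hif2-control, again with control library 1 highest (log2 fold change -0.46 ± 0.14, edgeR adjusted p = 0.039). Neither gene overlapped between groups. Msmo1 and Nsdhl, which act with Hsd17b7 in removing methyl groups, also did not overlap, at log2 fold changes of -0.32 and -0.26 and edgeR adjusted p = 0.078 and 0.073. The isomerase Ebp and Tm7sf2 overlapped between groups, at -0.12 and -0.22.

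Insig2 (ENSMUSG00000003721, chr1:121304353-121332589, minus strand), an anchor of SCAP in the endoplasmic reticulum, went the other way. It was at 29.6, 27.3 and 33.1 CPM in Vhl-Hif2-KO and at 19.4, 22.8 and 23.3 CPM in Vhl-Hif2-control, so that every knockout library was above every control library (log2 fold change 0.46 ± 0.11, edgeR adjusted p = 0.0067). In mouse liver, Insig2 is known for a transcript with a regulation of its own, and the counts here do not separate transcripts. Its paralogue Insig1, itself a target of SREBP2, averaged 87.8 ± 16.2 CPM in Vhl-Hif2-KO and 102 ± 8.34 CPM in Vhl-Hif2-control (SD, 3 libraries each) and did not pass the test (log2 fold change -0.21, edgeR adjusted p = 0.37). Srebf2, which encodes SREBP2, had a log2 fold change of -0.15 ± 0.15 and Scap one of -0.26 ± 0.13. Neither passed the test, at edgeR adjusted p = 0.60 and 0.22. In both genes every Vhl-Hif2-KO library was below every Vhl-Hif2-control library, as in 16.6% of all genes.

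Of the 5 transport and storage genes, Npc1 fell. Npc1, the membrane protein that exports cholesterol from lysosomes, was at 359, 369 and 407 CPM in Vhl-Hif2-KO and at 473, 445 and 438 CPM in Vhl-Hif2-control, without overlap but with a small log2 fold change of -0.26 ± 0.08 (edgeR adjusted p = 0.036). Its partner Npc2 averaged 546 ± 31.0 CPM in Vhl-Hif2-KO and 550.0 ± 17.9 CPM in Vhl-Hif2-control (SD, 3 libraries each). Stard4, a cytosolic sterol carrier, had a log2 fold change of -0.25, with no overlap and edgeR adjusted p = 0.24. Soat1, which esterifies cholesterol for storage, and Mylip, a ubiquitin ligase that marks lipoprotein receptors for breakdown, had log2 fold changes of 0.16 and 0.17 and did not pass the test (edgeR adjusted p = 0.26 and 0.54).

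**Figure D1:**
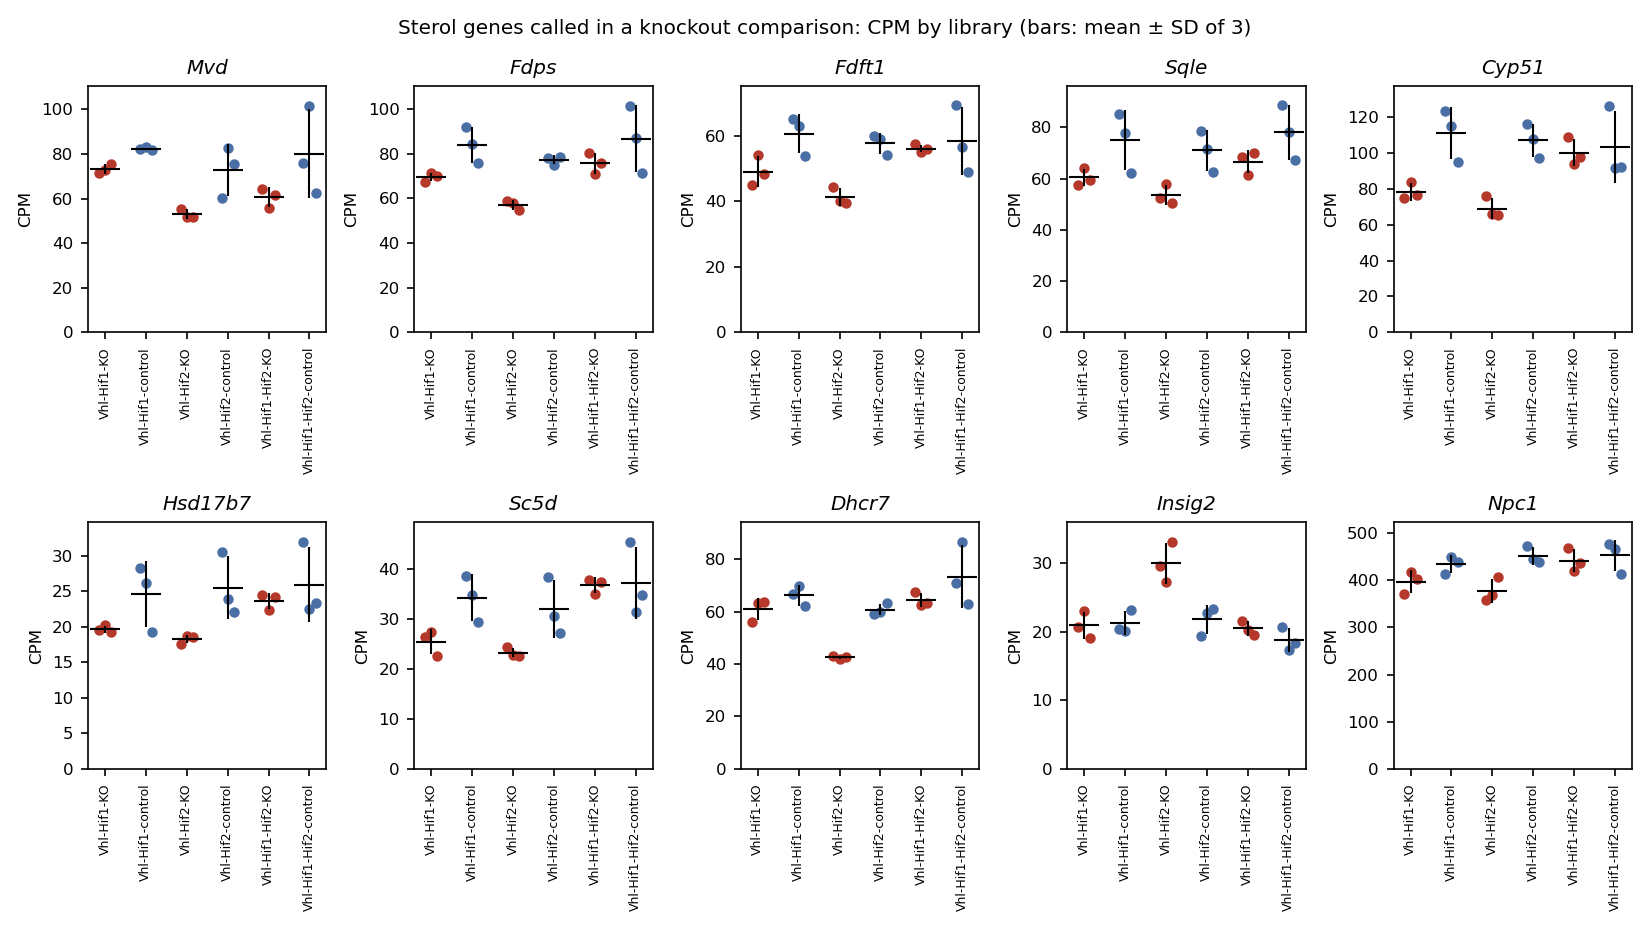
CPM of the 10 genes called in a knockout comparison, 1 point per library, red for knockouts and blue for controls, with the mean and SD of the 3 libraries of each group as black bars. Dhcr7 sat at 42.1 to 43.2 CPM in the 3 Vhl-Hif2-KO libraries, below every other library, and Insig2 was highest in Vhl-Hif2-KO.

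Leaving out libraries 1 at a time split these calls. Fdps, Fdft1, Cyp51, Dhcr7 and Insig2 were called in all 6 fits that left out 1 library of the cross, with adjusted p-values of at most 0.039, 0.038, 0.015, 0.0096 and 0.042 in edgeR. Sqle was called in 2 of the 6, and Mvd, Hsd17b7, Sc5d and Npc1 in 1 of 6 each. For those 5 genes the adjusted p reached 0.15 to 0.21 in edgeR, at log2 fold changes that all stayed below 0. The call of Sqle ended without KO 1, KO 3, control 1 or control 2, and that of Mvd without any library but control 1. The calls of Hsd17b7 and Sc5d ended without any library but control 3, and that of Npc1 without any but KO 3.

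Markers of other states moved with the Vhl-Hif2 comparison, in which 7.01% of all genes fell and 7.68% rose in edgeR. All 10 genes of a cell division list fell in Vhl-Hif2-KO, and their summed level was 597 to 662 CPM in Vhl-Hif2-KO and 907 to 964 CPM in Vhl-Hif2-control. Of 8 dendritic cell markers 5 fell (Ccr7, Fscn1, Flt3, Zbtb46 and Itgae), with sums of 10.3 to 14.1 CPM in Vhl-Hif2-KO and 22.8 to 54.8 CPM in Vhl-Hif2-control and none at 0. Of 8 neutrophil markers S100a8 rose and 2 fell, Csf3r and Cxcr2, with sums of 126 to 151 CPM in Vhl-Hif2-KO, 122 to 193 CPM in Vhl-Hif2-control and Ly6g at 0. Of 8 markers of monocytes and interstitial macrophages, 2 rose, Itgam and Ccr2, and C1qb fell, with sums of 58.0 to 84.8 CPM in Vhl-Hif2-KO and 15.4 to 30.6 CPM in Vhl-Hif2-control. None of the 3 lung epithelium markers tested was called, and the 6 listed summed to 293 to 348 CPM in Vhl-Hif2-KO and 256 to 401 CPM in Vhl-Hif2-control. The part of these in the sterol genes' levels was not tested. In bulk RNA, fewer cells of a kind and less RNA per cell cannot be told apart.

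The Vhl-Hif1 comparison asks the same of cells that can still make HIF-2α. In Vhl-Hif1-KO 1 of the 27 genes was called in edgeR's quasi-likelihood test (3.7%, against 3.64% of all genes). It was Cyp51, which fell, against 1.42% of all genes that fell and 2.22% that rose. The median log2 fold change of the 27 genes was -0.17, against -0.001 for all genes tested, and 24 of 27 lay below 0. Before adjustment, 10 of the 27 genes (37.0%) had p under 0.05 in edgeR, against 13.2% of all genes. In 8 genes (29.6%) every Vhl-Hif1-KO library was below every Vhl-Hif1-control library, against 12% of all genes, and 0 genes were above without overlap, against 11.8% of all genes. These 8 were Hmgcs1, Pmvk, Mvd, Idi1, Fdps, Cyp51, Sc5d and Stard4.

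Cyp51 was at 74.7, 84.0 and 76.3 CPM in Vhl-Hif1-KO and at 123, 115 and 94.9 CPM in Vhl-Hif1-control. The groups did not overlap, and control library 3 was the closest to the knockouts (log2 fold change -0.50 ± 0.13, edgeR adjusted p = 0.032). The call held in 1 of the 6 fits that left out 1 library, the one without control 3, and the adjusted p reached 0.16 in edgeR without control 1.

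Idi1 had the lowest log2 fold change in Vhl-Hif1-KO, -0.57 ± 0.19, but did not pass the test (edgeR adjusted p = 0.15). It was at 75.8, 71.8 and 60.3 CPM in Vhl-Hif1-KO and at 110, 107 and 91.6 CPM in Vhl-Hif1-control, without overlap. Hmgcs1 averaged 178 ± 18.05 CPM in Vhl-Hif1-KO and 223 ± 4.52 CPM in Vhl-Hif1-control (SD, 3 libraries each), with edgeR adjusted p = 0.26. Stard4 averaged 46.6 ± 5.51 CPM in Vhl-Hif1-KO and 59.1 ± 1.18 CPM in Vhl-Hif1-control, with edgeR adjusted p = 0.21.

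The later steps around squalene had log2 fold changes of -0.30 for Fdft1, -0.31 for Sqle and -0.22 for Lss in Vhl-Hif1-KO, each with 1 or more overlapping libraries. Dhcr7, at 56.1, 63.2 and 63.6 CPM in Vhl-Hif1-KO and 66.7, 70.0 and 62.1 CPM in Vhl-Hif1-control, overlapped between groups (log2 fold change -0.12, edgeR adjusted p = 0.70). Insig2 was at 20.7, 23.1 and 19.2 CPM in Vhl-Hif1-KO and at 20.4, 20.2 and 23.3 CPM in Vhl-Hif1-control, and its log2 fold change of -0.02 had a 95% interval of -0.25 to 0.20. Of the SREBP2 control genes, Srebf2 and Scap both had log2 fold changes of -0.02, and Insig1 one of -0.21. Tm7sf2, Ebp and Soat1 were the 3 genes with a log2 fold change above 0, at 0.18, 0.01 and 0.07.

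Among the transport genes, Npc1 averaged 397 ± 24.6 CPM in Vhl-Hif1-KO and 434 ± 19.1 CPM in Vhl-Hif1-control, and Npc2 averaged 508 ± 7.95 CPM in Vhl-Hif1-KO and 522 ± 10.03 CPM in Vhl-Hif1-control (SD, 3 libraries each). Both genes overlapped between groups. Mylip had a log2 fold change of -0.10 and Acat2 one of -0.16, and neither passed the test (edgeR adjusted p = 0.87 and 0.79).

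The division list was lower in part here as well, where 1.42% of all genes fell and 2.22% rose in edgeR. Of its 10 genes 2 fell in Vhl-Hif1-KO, Ccnb1 and Plk1, and the sums were 622 to 653 CPM in Vhl-Hif1-KO and 741 to 854 CPM in Vhl-Hif1-control. Of 8 neutrophil markers 3 fell, Csf3r, Cxcr2 and Mmp8, and S100a8 rose, with sums of 74.0 to 82.4 CPM in Vhl-Hif1-KO and 149 to 165 CPM in Vhl-Hif1-control, and Ly6g was at 0 in both and Camp in Vhl-Hif1-KO. Of the 6 lung epithelium markers 3 passed the filter and Epcam fell, and the 6 summed to 26.1 to 45.7 CPM in Vhl-Hif1-KO and 65.7 to 73.8 CPM in Vhl-Hif1-control. Of the monocyte and interstitial macrophage list Itgam rose, with sums of 28.4 to 33.0 CPM in Vhl-Hif1-KO and 21.6 to 28.1 CPM in Vhl-Hif1-control. None of the 8 dendritic cell markers was called, with sums of 16.5 to 27.4 CPM in Vhl-Hif1-KO and 24.2 to 34.2 CPM in Vhl-Hif1-control. The part of these in the sterol genes' levels was not tested.

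**Figure D2:**
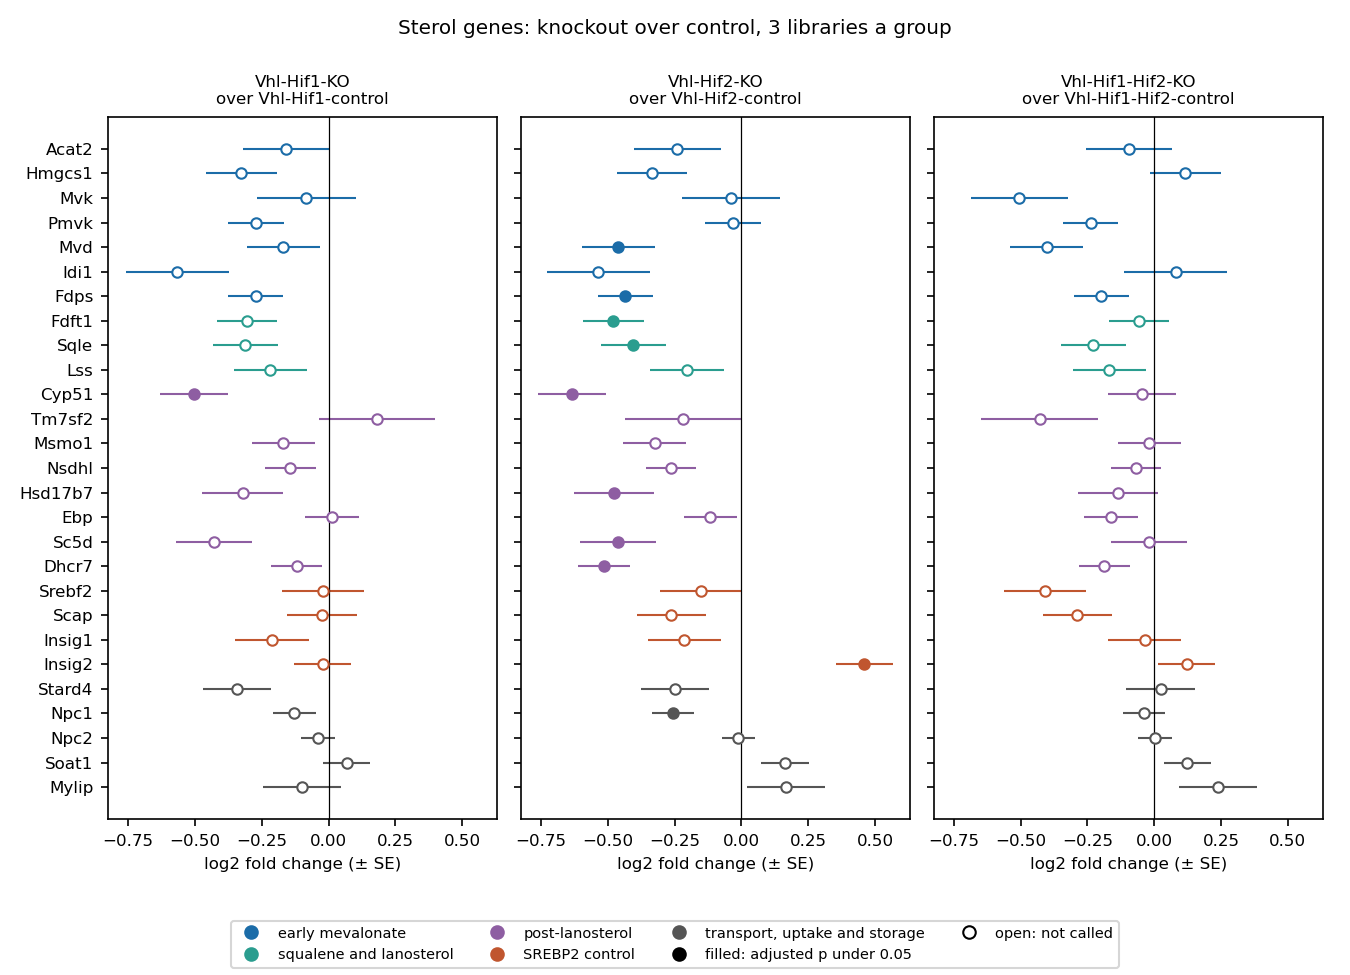
Log2 fold change of each of the 27 genes in the 3 knockouts over their own controls (x axis, bars ± SE of edgeR's fit, 3 libraries a group), ordered by role. Filled points passed the adjusted p threshold: 1 gene in Vhl-Hif1-KO, 10 in Vhl-Hif2-KO and 0 in the triple knockout.

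The Vhl-Hif1 and Vhl-Hif2 comparisons share no library. In both, 22 of the 27 genes (81.5%) had a log2 fold change below 0, against 33.2% of all genes tested. In both, 7 of the 27 genes (25.9%) were below their controls without overlap, against 5.93% of all genes tested: Hmgcs1, Mvd, Idi1, Fdps, Cyp51, Sc5d and Stard4. These made up 87.5% of the genes without overlap in Vhl-Hif1-KO and 43.8% of those in Vhl-Hif2-KO. In 18 of 27 genes the log2 fold change was lower in Vhl-Hif2-KO than in Vhl-Hif1-KO, as it was in 6505 of all 12900 genes. The difference itself was tested as an interaction, and 0 of the 27 genes were called in edgeR (2.44% of all genes were) and 0 with DESeq2. Against 10.5% of all genes, 2 of the 27 (7.41%) had an unadjusted p under 0.05 in edgeR. These were Insig2, with a Vhl-Hif1 effect minus Vhl-Hif2 effect of -0.48 (95% interval -0.80 to -0.16, edgeR adjusted p = 0.13), and Dhcr7, with 0.39 (0.10 to 0.68, edgeR adjusted p = 0.20). With only the libraries of both crosses in the fit, Dhcr7 was called, at 0.40 (edgeR adjusted p = 0.047).

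In the triple knockout, which lacks both HIF-α subunits, 0 of the 27 genes were called in edgeR's quasi-likelihood test, and 0 with DESeq2. Only 5 of all 12900 genes (0.0388%) were called in edgeR. Before adjustment 5 of the 27 genes (18.5%) had p under 0.05, against 11.5% of all genes: Mvk, Pmvk, Mvd, Srebf2 and Scap. The median log2 fold change of the 27 genes was -0.07, against -0.01 for all genes tested, and 20 of 27 lay below 0. Mvk and Pmvk were below their controls without overlap (7.4%, against 8.34% of all genes) and Mylip above them (3.7%, against 6.97%).

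Mvk, the first mevalonate kinase, was at 13.2, 13.8 and 12.8 CPM in Vhl-Hif1-Hif2-KO and at 16.5, 25.1 and 14.9 CPM in Vhl-Hif1-Hif2-control, with a log2 fold change of -0.50 ± 0.18. Mvd was at 64.5, 55.8 and 61.5 CPM in Vhl-Hif1-Hif2-KO and at 76.1, 102 and 62.6 CPM in Vhl-Hif1-Hif2-control, with one of -0.40 ± 0.14. In both, control library 2 was far above the other two. Scap was at 82.7, 80.2 and 83.3 CPM in Vhl-Hif1-Hif2-KO and at 86.6, 131 and 82.5 CPM in Vhl-Hif1-Hif2-control, with one of -0.29 ± 0.13. All 3 had an edgeR adjusted p = 0.43, and without control library 2 the log2 fold changes were -0.24 for Mvk, -0.195 for Mvd and -0.04 for Scap.

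None of the genes that fell in Vhl-Hif2-KO was called here. Apart from Mvd, given above, each had a 95% interval that included 0. Cyp51 was at 109, 93.8 and 97.97 CPM in Vhl-Hif1-Hif2-KO and at 126, 91.6 and 92.0 CPM in Vhl-Hif1-Hif2-control, with a log2 fold change of -0.05 (95% interval -0.31 to 0.22). Fdft1 was at 57.3, 55.1 and 55.8 CPM in Vhl-Hif1-Hif2-KO and at 69.4, 56.6 and 48.9 CPM in Vhl-Hif1-Hif2-control (log2 fold change -0.06, 95% interval -0.29 to 0.18). Both genes overlapped, and in both the controls were spread more widely than the knockouts. Fdps was at 80.2, 71.0 and 75.7 CPM in Vhl-Hif1-Hif2-KO and at 101, 87.3 and 71.5 CPM in Vhl-Hif1-Hif2-control (-0.20, -0.41 to 0.02).

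Dhcr7 was at 67.7, 62.5 and 63.4 CPM in Vhl-Hif1-Hif2-KO and at 70.9, 86.5 and 62.8 CPM in Vhl-Hif1-Hif2-control, with a log2 fold change of -0.19 (-0.39 to 0.02). Insig2 was at 21.6, 20.3 and 19.6 CPM in Vhl-Hif1-Hif2-KO and at 20.8, 17.4 and 18.4 CPM in Vhl-Hif1-Hif2-control, with one of 0.12 (-0.10 to 0.35). Both overlapped between groups. Sqle averaged 66.7 ± 4.50 and Sc5d 36.7 ± 1.59 CPM in Vhl-Hif1-Hif2-KO, against 78.1 ± 10.7 and 37.2 ± 7.27 CPM in Vhl-Hif1-Hif2-control (SD, 3 libraries each). Hsd17b7 averaged 23.7 ± 1.16 and Npc1 442 ± 24.1 CPM in Vhl-Hif1-Hif2-KO, against 26.0 ± 5.26 and 453 ± 33.7 CPM in Vhl-Hif1-Hif2-control.

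The control libraries of this cross carried much of the spread. Library 2 was the highest of all 18 libraries for 9 of the 27 genes (Mvk, Pmvk, Mvd, Tm7sf2, Ebp, Dhcr7, Srebf2, Scap and Npc2) and the lowest for 5 (Idi1, Msmo1, Insig2, Stard4 and Soat1). Library 1 was the highest for 11 genes. Srebf2 was at 176, 171 and 186 CPM in Vhl-Hif1-Hif2-KO and at 222, 308 and 177 CPM in Vhl-Hif1-Hif2-control. Idi1 was at 109, 101 and 102 CPM in Vhl-Hif1-Hif2-KO and at 130, 57.5 and 107 CPM in Vhl-Hif1-Hif2-control. Without control 2 the count of calls was 0 and the median log2 fold change of the 27 genes was -0.11, and without control 3 they were 0 and -0.17. Without control 1 they were 0 and 0.04, so that the sign of the median turned, and 12 of 27 genes lay below 0. Of the 10 division genes 0 were called, against 0.0388% of all genes. Division sums were 862 to 983 CPM in Vhl-Hif1-Hif2-KO and 759 to 862 CPM in Vhl-Hif1-Hif2-control. Of the 6 neutrophil markers tested 0 were called, with sums of 145 to 162 CPM in Vhl-Hif1-Hif2-KO and 127 to 135 CPM in Vhl-Hif1-Hif2-control, and of the monocyte list Itgam rose. Lung epithelium markers summed to 165 to 186 CPM in Vhl-Hif1-Hif2-KO and 208 to 247 CPM in Vhl-Hif1-Hif2-control, with 0 of 3 called. Their part in the sterol genes' levels was not tested.

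**Figure D3:**
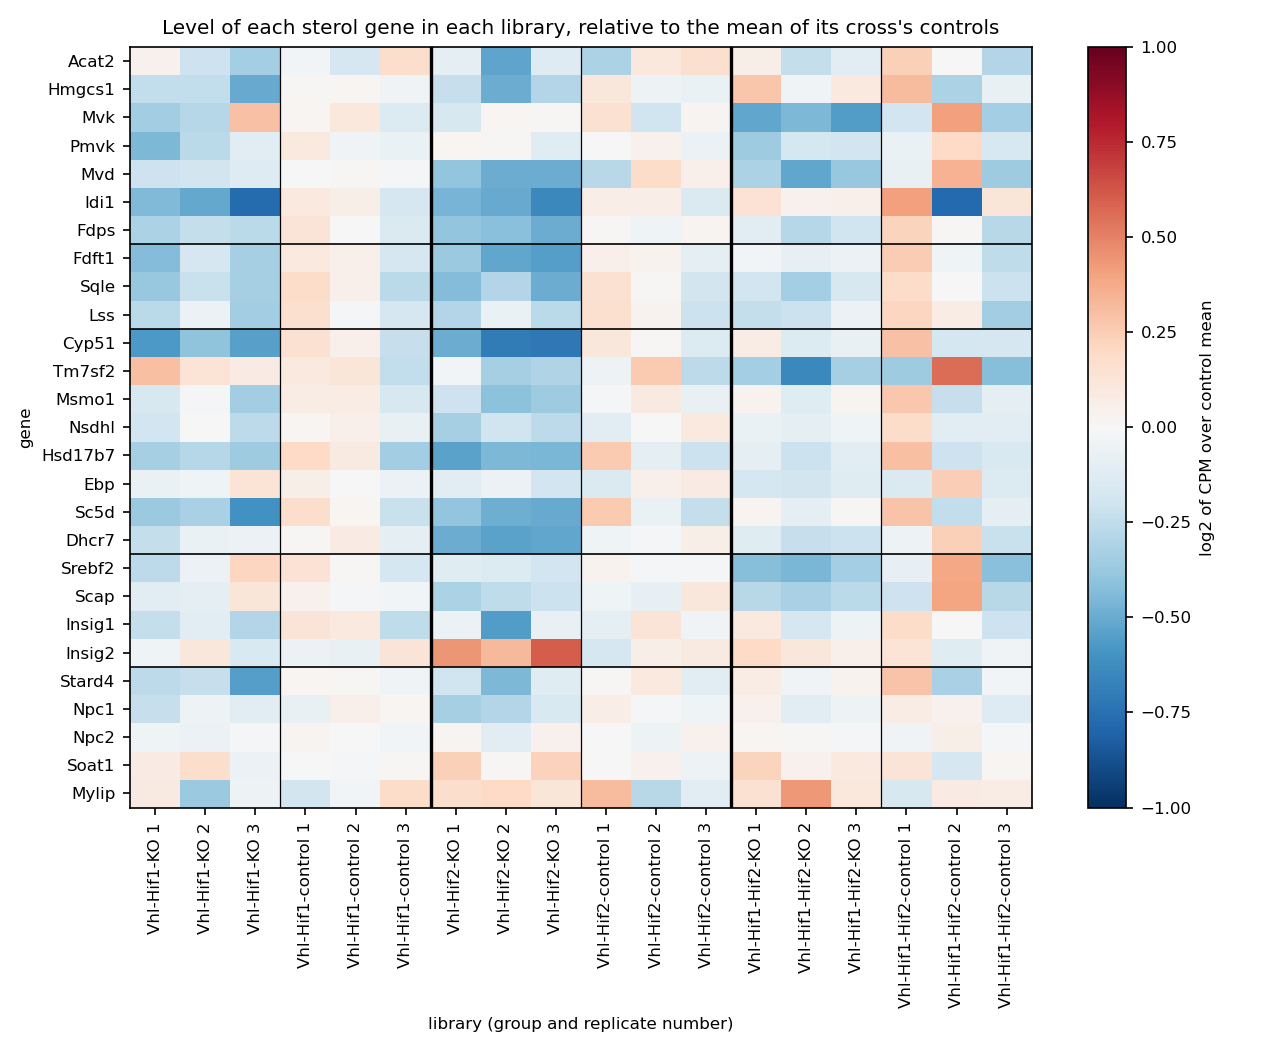
Log2 of each library's CPM over the mean of its own cross's controls (colour, blue below and red above), with the 27 genes in rows by role and the 18 libraries in columns, knockouts left of their controls. Most synthesis genes are blue in Vhl-Hif2-KO and also in Vhl-Hif1-KO. Control library 2 of the triple cross, where Idi1 was at 57.5 CPM and Srebf2 at 308 CPM, has the strongest colours of its group.

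The difference between the Vhl-Hif2 effect and the triple effect was also tested as an interaction. Of the 27 genes 0 were called in edgeR (7.99% of all genes were) and 1 with DESeq2. An unadjusted p under 0.05 in edgeR was found for 7 of the 27 (25.9%), close to the 24.7% of all genes. Cyp51 came closest. Its Vhl-Hif2 effect minus the triple effect was -0.59 on the log2 scale (95% interval -0.96 to -0.21, edgeR adjusted p = 0.053), and DESeq2 called it (-0.59, adjusted p = 0.021). Here control library 1 of the triple cross decided the count. Without it edgeR called 5 genes, Hmgcs1, Idi1, Fdft1, Cyp51 and Sc5d, with differences of -0.64, -0.87, -0.57, -0.76 and -0.61. Without control 2, Dhcr7 alone was called, at -0.46 (edgeR adjusted p = 0.0088), and without control 3 no gene was. The share of all genes called in these fits was not counted.

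Between the Vhl-Hif1 effect and the triple effect, 0 of the 27 genes were called in edgeR (2.04% of all genes were) and 0 with DESeq2. An unadjusted p under 0.05 in edgeR was found for 3 (11.1%, against 16.7% of all genes), Hmgcs1, Idi1 and Cyp51. Their differences were -0.44, -0.65 and -0.46 on the log2 scale, with edgeR adjusted p = 0.26, 0.26 and 0.24. Without control library 1 of the triple cross, Hmgcs1 and Cyp51 were called, at -0.63 each (edgeR adjusted p = 0.046 and 0.044), and the share of all genes was not counted. Both differences use the same libraries of the triple cross.

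**Figure D4:**
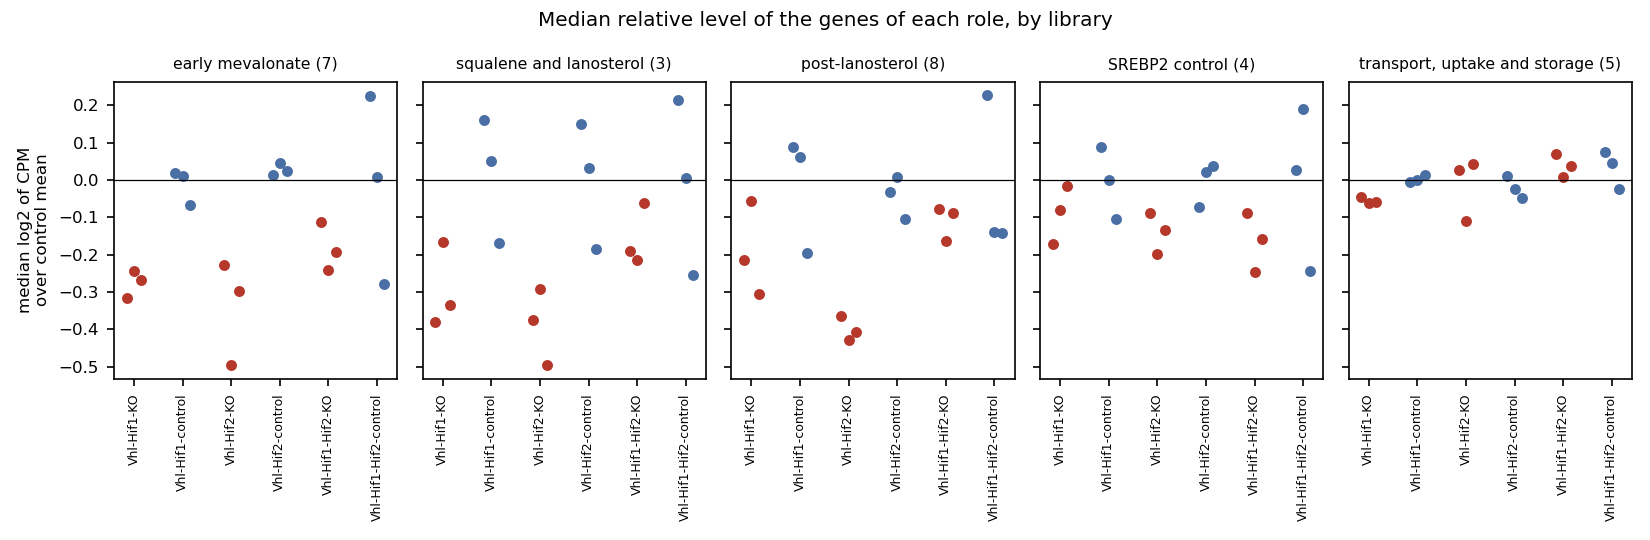
Median, over the genes of each role, of log2 CPM over the mean of the cross's controls, 1 point per library, red for knockouts and blue for controls. The 8 genes after lanosterol had medians of -0.37 to -0.43 in the 3 Vhl-Hif2-KO libraries and of -0.10 to 0.01 in the 3 Vhl-Hif2-control libraries, and the triple cross's controls were the most spread.

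By role, the early mevalonate genes had library medians of -0.23 to -0.49 in Vhl-Hif2-KO, against 0.01 to 0.05 in Vhl-Hif2-control, and of -0.24 to -0.32 in Vhl-Hif1-KO, against -0.07 to 0.02 in Vhl-Hif1-control. These are log2 levels relative to the mean of the cross's own controls, taken over the genes of the role, and in both crosses the knockout libraries lay below the controls. After lanosterol they were -0.37 to -0.43 in Vhl-Hif2-KO, against -0.10 to 0.01 in Vhl-Hif2-control, and -0.06 to -0.30 in Vhl-Hif1-KO, against -0.19 to 0.09 in Vhl-Hif1-control, where the groups overlapped. Transport, uptake and storage genes had library medians of -0.11 to 0.04 in Vhl-Hif2-KO, against -0.05 to 0.01 in Vhl-Hif2-control, with Npc1 and Stard4 below 0 and Soat1 and Mylip above it.

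The 3 control groups gave the background of the levels. No gene of the 27 was called between any pair of them in edgeR. For Vhl-Hif1-control over Vhl-Hif2-control 0.341% of all genes were called, and DESeq2 called 0 of the 27. An unadjusted p under 0.05 in edgeR was found for 0 of the 27, against 5.44% of all genes. For Vhl-Hif1-Hif2-control over Vhl-Hif1-control 5.4% of all genes were called, and DESeq2 called 2 of the 27, Mvk (0.58) and Acat2 (-0.52). Here 5 of the 27 (18.5%) had an unadjusted p under 0.05 in edgeR, against 24.4% of all genes. For Vhl-Hif1-Hif2-control over Vhl-Hif2-control 3.42% of all genes were called, and DESeq2 called 0 of the 27. In this pair 4 of the 27 (14.8%) had an unadjusted p under 0.05 in edgeR, against 22.1% of all genes. These comparisons share control groups with each other.

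In 5 neighbouring sterol lists no gene was called lower in any knockout. Among all 12900 genes, edgeR called 7.01% lower and 7.68% higher in Vhl-Hif2-KO. In Vhl-Hif1-KO it called 1.42% lower and 2.22% higher. In a list of 10 genes of SREBP processing and sterol sensing, Rnf145, a ubiquitin ligase of the endoplasmic reticulum that acts on SCAP, was at 66.1 ± 3.63 CPM in Vhl-Hif2-KO and 31.1 ± 2.62 CPM in Vhl-Hif2-control (SD, 3 libraries each). It was the only one of the 10 to rise in Vhl-Hif2-KO, by 1.09 ± 0.09 on the log2 scale (edgeR adjusted p = 2e-07), and 0 of 10 were called in Vhl-Hif1-KO. Of 8 efflux and oxysterol receptor genes, 2 rose in both. Nr1h3, which encodes the sterol sensor LXRα, had log2 fold changes of 0.55 in Vhl-Hif2-KO and 0.72 in Vhl-Hif1-KO (edgeR adjusted p = 0.0011 and 2.4e-04). Abcb4, a phospholipid transporter, averaged 13.8 ± 5.34 CPM in Vhl-Hif2-KO and 0.947 ± 0.147 CPM in Vhl-Hif2-control, and 10.4 ± 0.937 CPM in Vhl-Hif1-KO and 0.575 ± 0.473 CPM in Vhl-Hif1-control.

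Of 6 genes that supply cytosolic acetyl-CoA, Slc25a1, the mitochondrial citrate carrier, rose in Vhl-Hif2-KO (log2 fold change 0.60, edgeR adjusted p = 0.011). Acly, which splits citrate into acetyl-CoA, rose in Vhl-Hif1-KO to 867 ± 59.7 CPM, against 452 ± 42.3 CPM in Vhl-Hif1-control (log2 fold change 0.94, edgeR adjusted p = 1.9e-06). Of 15 genes of the isoprenoid branch, which shares the products of Fdps, the farnesyltransferase subunits Fnta and Fntb rose in Vhl-Hif2-KO, by 0.25 and 0.59 on the log2 scale. Of 14 genes of sterol transfer and lysosomal release, Gramd1b, which moves cholesterol from the plasma membrane to the endoplasmic reticulum, rose in Vhl-Hif2-KO by 0.38. In the triple knockout 0 genes of these lists were called in edgeR, against 0.0388% of all genes.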

How the data were processed

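The authors deposited 1 table of 18 libraries of polyA RNA. The labels do not name its unit; the deposited values are read here to be expected counts, since 89.251% of them, not all, were within 1e-09 of a whole number. FastQC, cutadapt, STAR and the GRCm38 build are named in the submitters' processing notes. No source used here gives their versions, the counting tool, the annotation or how strand was treated, so overlapping genes may share reads.

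The expected counts were rounded. The filterByExpr function of edgeR, run on the 6 groups, kept 12900 of 32789 genes, which hold 99.967% of counts. Library sizes were scaled with TMM, and edgeR's quasi-likelihood model was fitted to all 18 libraries with 1 coefficient per group. A gene passed at a Benjamini-Hochberg adjusted p below 0.05 over the 12900 genes. SE is the log2 fold change over the square root of F, an approximation. R 4.3.3 was used with edgeR 4.0.16, DESeq2 1.42.0 and limma 3.58.1. Totals of 19230452 to 34015320 counts set the counting error, and amplification by PCR adds error that they do not show. Gene lengths are of merged exons in GENCODE M21 on GRCm38, matched for 27 of 27 genes. Alternatives were RLE scaling, no filter, a replicate block, only the groups compared, DESeq2 and leaving out each library. The 27 genes, the lists and the rule were chosen with earlier results of these data known. By the rule all 27 genes are described, those called with every library's value, and genes of other sterol lists are named where called, at most 3 a list. Genes of the marker lists are named where called, apart from the division list in Vhl-Hif2-KO, and were picked for naming after their values were seen. The result of 1 marker list is not reported here.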

Additional observations from a re-analysis of the deposited data

How the results depend on the processing

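No gene's called direction turned under any alternative run. In Vhl-Hif1-KO the count of called genes was 1, and 2 with only the groups compared, when Idi1 joined Cyp51. Leaving out 1 library gave 0 to 1. In Vhl-Hif2-KO the count was 10, with 10 under RLE scaling, 9 without the filter (Npc1 lost), 11 with DESeq2, 14 with only the groups compared and 5 to 8 on leaving out 1 library. In the triple knockout it was 0 under every alternative. Between the Vhl-Hif1 and Vhl-Hif2 effects the count was 0, and 1 with only the groups compared (Dhcr7, 0.40, adjusted p = 0.047 in edgeR). On leaving out 1 library it was 0 to 2 between the Vhl-Hif1 and triple effects and 0 to 5 between the Vhl-Hif2 and triple effects, where DESeq2 called 1. For Vhl-Hif1-Hif2-control over Vhl-Hif1-control DESeq2 called 2 and leaving out 1 library gave 0 to 3, and over Vhl-Hif2-control it gave 0 to 2. The causes were not tested.

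Replicate numbers did not pair the libraries: the correlation of same-numbered deviations within a cross ran from -0.286 to 0.208, and 3 of 9 pairs matched their own number best. With the replicate block, 1 gene was called in Vhl-Hif1-KO, 7 in Vhl-Hif2-KO, 0 in the triple knockout and 1 between the Vhl-Hif2 and triple effects (Cyp51, -0.60, adjusted p = 0.029 in edgeR). In Vhl-Hif2-KO this fit did not call Mvd, Sqle, Hsd17b7 and Npc1 (edgeR adjusted p = 0.086, 0.054, 0.061 and 0.077) and did call Hmgcs1. The lowest group mean among the 27 genes was 7.15 CPM, and 3 libraries a group limit the precision of every comparison.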
